A study of Mus musculus with 4 samples.

Results

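The genes described here encode feedback regulators of growth factor and ERK signalling: the phosphatase genes Dusp4, Dusp5 and Dusp6, the Sprouty genes Spry1, Spry2 and Spry4, the Spred genes Spred1 and Spred2, and the ETS factor genes Etv4 and Etv5. These 10 genes were chosen by name, and each is represented by the brightest, on average, of the probe sets that name it alone, out of 19937 genes named in this way. Primary neurospheres from the subventricular zone of C57BL/6 mice aged 9 to 12 weeks were grown with the mitogens FGF2 and EGF, each at 20 ng/ml. All cells received non-targeting control siRNAs and, later, virus that expresses Pax6, a homeodomain factor of neurogenesis. The treated cells were kept in 100 nM olaparib with 0.01% DMSO (2 arrays). Olaparib blocks PARP1 and PARP2, which make poly(ADP-ribose) at broken DNA. The control cells were kept in 0.01% DMSO alone (2 arrays). In both groups the growth factors were withdrawn and the cells plated on laminin 10 h before RNA was taken. Arrays of one group are biological replicates by their labels, which name no batch and no sort for cells that took up the virus.

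Growth factors bind receptor tyrosine kinases, which load RAS with GTP and start the kinase chain from RAF through MEK to ERK. Active ERK induces genes whose products damp the same chain. Dual-specificity phosphatases remove phosphate from ERK, Sprouty proteins act between the receptor and RAF, and Spred proteins bring neurofibromin, the RAS inactivator encoded by Nf1, to the membrane. Etv4 and Etv5 are transcription factors of the PEA3 group that respond to fibroblast growth factor signalling. Transcripts of several genes of the set, though not of all, are widely used as readouts of ERK activity.

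Array medians were 6.60 to 6.68 on the log2 scale. With so few arrays per group the precision is low. Pearson's r across the 13956 genes tested was 0.993 between the olaparib arrays and 0.996 between the DMSO arrays, a description with no test because genes are not independent replicates. The drug's targets Parp1 and Parp2 and the transduced factor Pax6 did not pass the test, with log2 differences of -0.04, -0.10 and 0.06 (olaparib minus DMSO). All 10 feedback genes passed the filter on dim genes, a mean log2 value above 6.42. In 29 genes of tissues unrelated to brain the mean values had a median of 6.36 and a highest of 7.77. That highest value belonged to Apoa2 alone, and the upper quartile was 6.58. Dusp5, Spry1, Etv4 and Spry4, with means of 6.73, 7.11, 7.42 and 7.47, lay below that highest value, so the sizes of their differences are less certain. The mean of Dusp4 over the olaparib arrays, 7.68, also lay below it.

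Olaparib was accompanied by higher transcript levels of both Spred genes, while no phosphatase, Sprouty or ETS factor gene of the set passed the test. Spred1 rose 1.34-fold and Spred2 rose 1.36-fold. Of the 10 genes 2 rose, 0 fell and 8 did not pass, in a table where 2.84% of all genes tested were called higher and 3.37% lower, 6.22% in all (limma, adjusted p under 0.05). At an unadjusted limma p under 0.05 there were 4 of the 10, against 19.1% of all genes in either direction. They were Spred1, Spred2 and Etv4, which were higher, and Dusp4, which was lower. In the log2 differences 8 of the 10 were above 0, against 50.5% of all genes, and the median over the set was 0.14, against 0.0013 over all genes tested. A second fit held every probe set past the filter, 21704 in all. There 0 of the 10 genes passed, against 0.00461% of probe sets called higher and 0.0599% called lower, 0.0645% in all. In bulk samples such as these, fewer cells of a type and less RNA per cell cannot be told apart.

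**Figure D1:**
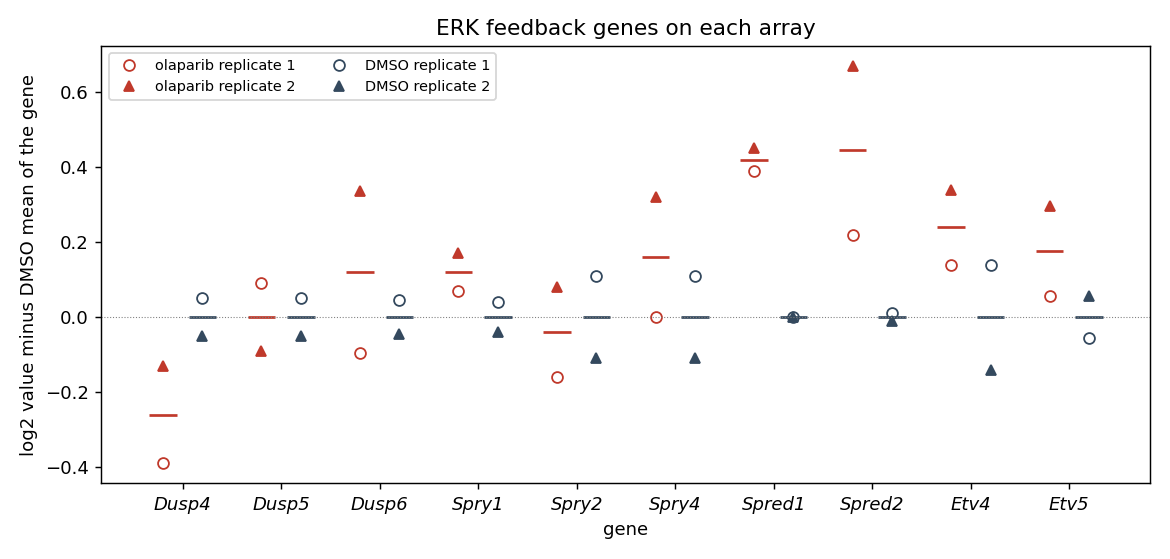
Log2 value of each ERK feedback gene on each array, minus the gene's mean over the DMSO arrays, with the olaparib arrays left of the DMSO arrays and a bar at each group mean. Both olaparib arrays lie above both DMSO arrays in Spry1, Spred1 and Spred2 and below them in Dusp4. They are also the higher in Etv4 and Etv5, but there the lower olaparib and higher DMSO array are level at the precision drawn. Olaparib replicate 2 lies above olaparib replicate 1 in 9 of the 10 genes.

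Spred1, whose human counterpart is mutated in Legius syndrome, had log2 values of 9.65 and 9.71 on the olaparib arrays, against 9.26 and 9.26 on the DMSO arrays. The 4 values fell into 2 tight pairs that did not overlap. The log2 difference was 0.42 (SE 0.11, 95% interval 0.19 to 0.65, limma adjusted p = 0.0253), and 1.35% of all genes tested had a larger upward difference. It was 0.39 with olaparib replicate 1 alone and 0.45 with olaparib replicate 2 alone, and the call held in both cases (adjusted p = 0.00494 and 0.00105). The call was lost without either DMSO array (adjusted p = 0.451 without DMSO replicate 1 and 0.389 without DMSO replicate 2). It was also lost in the fit of every probe set (adjusted p = 0.161) and under median centring (adjusted p = 0.157), and over its 14 alternatives adjusted p ran from 0.00105 to 0.451.

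Spred2 had log2 values of 9.33 and 9.78 on the olaparib arrays, against 9.12 and 9.10 on the DMSO arrays. The groups did not overlap, but the olaparib arrays stood farther apart from each other than the lower of them stood from the DMSO arrays. The log2 difference was 0.44 (SE 0.13, 95% interval 0.17 to 0.71, limma adjusted p = 0.047), close to the threshold. It was 0.22 with olaparib replicate 1 alone, which did not pass (adjusted p = 0.154), and 0.67 with olaparib replicate 2 alone. The call was also lost without DMSO replicate 1, without DMSO replicate 2, without a filter on dim genes, under median centring and in the fit of every probe set (adjusted p = 0.362, 0.342, 0.0918, 0.117 and 0.280; range over its 14 alternatives 2.99e-06 to 0.362).

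A second probe set names Spred2 alone, and it was examined after the data were seen. Its log2 values were 9.21 and 9.10 on the olaparib arrays, against 8.61 and 8.64 on the DMSO arrays. Here too the groups did not overlap, and olaparib replicate 1 was the higher of its pair. Its log2 difference was 0.53 (SE 0.10, 95% interval 0.31 to 0.75, limma adjusted p = 0.00369, and 0.0993 in the fit of every probe set). The rise of Spred2 was thus measured by both probe sets, while the gap between the olaparib arrays had opposite signs in them.

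The bases before the annotated start of both Spred genes are shown because these are the members that rose, with Dusp6, which did not pass, beside them. RefSeq promoter windows on GRCm38.p6 were used for 7 of the 10 genes. In them the 250 bases upstream of the start were searched on both strands. The motifs were CCGGAA, a strict form of the ETS site, the AP-1 site TGANTCA and the cAMP response element start TGACG. The opening letters TGAATG or TCAATG of the site of Capicua, a repressor that ERK signalling inactivates, were searched as well. Capitals mark matches, which on the opposite strand read as the reverse complement. No motif searched overlapped another in these windows. Spred1 lies at chr2:117121071-117182279 and its window is chr2:117120821-117121070 (plus strand). Spred2 lies at chr11:19924442-20024026 with the window chr11:19924192-19924441 (plus strand), and Dusp6 on chromosome 10 with the window chr10:99262981-99263230 (plus strand).
Spred1: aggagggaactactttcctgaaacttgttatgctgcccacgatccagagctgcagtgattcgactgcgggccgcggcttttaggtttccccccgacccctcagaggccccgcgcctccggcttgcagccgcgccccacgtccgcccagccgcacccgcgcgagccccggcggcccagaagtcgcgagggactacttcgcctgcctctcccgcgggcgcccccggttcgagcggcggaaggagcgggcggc
Spred2: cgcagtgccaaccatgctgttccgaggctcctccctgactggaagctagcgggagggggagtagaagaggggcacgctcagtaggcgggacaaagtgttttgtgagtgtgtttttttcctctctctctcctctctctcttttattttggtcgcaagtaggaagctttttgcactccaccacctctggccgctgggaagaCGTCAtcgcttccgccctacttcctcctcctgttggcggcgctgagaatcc
Dusp6: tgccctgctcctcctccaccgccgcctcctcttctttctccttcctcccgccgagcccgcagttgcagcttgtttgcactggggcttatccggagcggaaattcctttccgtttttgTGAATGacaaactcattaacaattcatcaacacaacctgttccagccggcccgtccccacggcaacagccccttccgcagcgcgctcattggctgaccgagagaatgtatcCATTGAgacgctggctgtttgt
The Spred1 window, with a GC content of 70.8%, held 0 matches. The Spred2 window held 1 cAMP response element start, which begins 51 bases before the start. The Dusp6 window held 2 Capicua openings, which begin 133 and 22 bases before the start. Capicua openings also stood in the windows of Dusp5 and Spry2 and in 1 of 2 windows of Etv5, and a cAMP response element start in that of Dusp5. The ETS form CCGGAA and the AP-1 site were in 0 of the 8 windows. The shorter ETS core GGAA, which stands in each printed window, was not counted. Over all 32851 windows of that length, 12.0% held CCGGAA, 6.75% the AP-1 site, 17.8% the cAMP response element start and 17.0% a Capicua opening. A match of letters is a description and does not show a site in use.

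Among the phosphatase genes, none passed the test. Dusp6, which encodes the cytoplasmic phosphatase specific for ERK, had log2 values of 8.35 and 8.78 on the olaparib arrays, against 8.49 and 8.40 on the DMSO arrays. The olaparib arrays lay on either side of the DMSO pair. The log2 difference was 0.13 (95% interval -0.12 to 0.38, limma adjusted p = 0.663). With olaparib replicate 1 alone it was -0.09, and with olaparib replicate 2 alone 0.34, which passed (adjusted p = 0.0106; range over its 14 alternatives 0.0106 to 0.993).

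Dusp4, a nuclear phosphatase of ERK and other MAP kinases, had log2 values of 7.55 and 7.81 on the olaparib arrays, against 7.99 and 7.89 on the DMSO arrays. It was the only member whose olaparib arrays both lay below both DMSO arrays. The log2 difference was -0.26 (95% interval -0.46 to -0.06, unadjusted p = 0.0140 and adjusted p = 0.126 in limma). It was -0.39 and passed with olaparib replicate 1 alone (adjusted p = 0.00315), and was -0.13 with olaparib replicate 2 alone (adjusted p = 0.395). Over the 14 alternatives of Dusp4 adjusted p ran from 0.00315 to 0.770. Dusp5, another nuclear phosphatase of ERK, had 6.82 and 6.64 on the olaparib arrays, against 6.78 and 6.68 on the DMSO arrays, so that the olaparib pair enclosed the DMSO pair. Its log2 difference was 0.0029 (95% interval -0.17 to 0.18, limma adjusted p = 0.996).

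The Sprouty genes did not pass either. Spry2 had log2 values of 8.67 and 8.91 on the olaparib arrays, against 8.94 and 8.72 on the DMSO arrays. The pairs interleaved, and the log2 difference was -0.04 (95% interval -0.28 to 0.20, limma adjusted p = 0.922). Spry4 had 7.39 and 7.71 on the olaparib arrays, against 7.50 and 7.28 on the DMSO arrays. Olaparib replicate 2 was the highest of the 4 and olaparib replicate 1 lay inside the DMSO range. The log2 difference of Spry4 was 0.16 (95% interval -0.05 to 0.37, limma adjusted p = 0.448). It was -0.0021 with olaparib replicate 1 alone and 0.32 with olaparib replicate 2 alone, where it passed (adjusted p = 0.0187; range over its 14 alternatives 0.0187 to 0.994).

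Spry1 had log2 values of 7.12 and 7.22 on the olaparib arrays, against 7.09 and 7.01 on the DMSO arrays. The groups did not overlap but lay close together. Its log2 difference was 0.12 (95% interval -0.04 to 0.28, limma adjusted p = 0.465).

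Etv4, which like Etv5 encodes an ETS factor of the PEA3 group, had log2 values of 7.44 and 7.64 on the olaparib arrays, against 7.44 and 7.16 on the DMSO arrays. The lower olaparib array and the higher DMSO array were nearly level. The log2 difference was 0.25 (95% interval 0.05 to 0.45, unadjusted p = 0.0187 and adjusted p = 0.15 in limma), and it passed with olaparib replicate 2 alone (0.34, adjusted p = 0.0117; range over its 14 alternatives 0.0117 to 0.932). Etv5 had 10.25 and 10.49 on the olaparib arrays, against 10.14 and 10.25 on the DMSO arrays, a separation by less than the spread within either group. Its log2 difference was 0.18 (95% interval -0.08 to 0.44, limma adjusted p = 0.491), and a second probe set of Etv5, examined after the data were seen, gave 0.16 (95% interval -0.07 to 0.39, adjusted p = 0.50). With olaparib replicate 2 alone the brighter probe set of Etv5 passed (0.30, adjusted p = 0.0403; range over its 14 alternatives 0.0403 to 0.999).

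**Figure D2:**
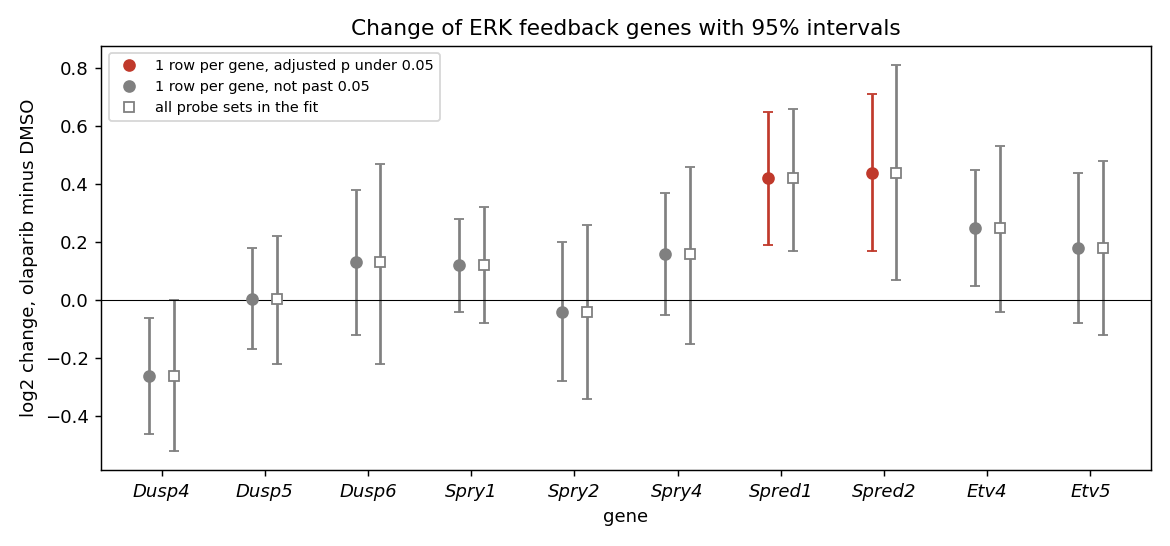
Log2 change (olaparib minus DMSO) of each ERK feedback gene with its 95% interval, from the limma fit with 1 row per gene (circles) and from the fit with all probe sets (squares). In the first fit Spred1 and Spred2 pass an adjusted p of 0.05, and for Spred2 the interval widens from 0.17 to 0.71 in that fit to 0.07 to 0.81 with all probe sets.

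The groups did not overlap in 6 of the 10 genes, 5 higher and 1 lower with olaparib. Over all genes tested 23.2% were separated upward and 23.9% downward, 47.1% in all, so that the count over the set is read against that share. Differences between members in their change were not tested. An adjusted p above the threshold does not show that a gene kept its level, and the intervals above give the sizes that these arrays still allow.

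The olaparib arrays differed from each other more than the DMSO arrays did. Over all genes tested the median within-group SD was 0.0767 for olaparib and 0.0483 for DMSO. Olaparib replicate 2 was the higher of its pair in 9 of the 10 feedback genes, with a median gap of 0.24 on the log2 scale. The gap between these arrays moved with signal: it was above 0 in 24.1% of genes with means under 7, 62.2% between 7 and 8, 84.3% between 8 and 9, and 91.6% above 9. Against genes of like signal, in bins 0.25 log2 units wide, 8 of the 10 members lay above the median gap and 5 above the 90th percentile. Those 5 were Dusp4, Dusp6, Spry4, Spred2 and Etv4. Spred2 had a gap of 0.45 where the 90th percentile was 0.32, and Dusp6 had 0.43 where it was 0.28. On the second probe set of Spred2, not counted here, olaparib replicate 1 was the higher of its pair. Spred1 had a gap of 0.06, under its bin's median of 0.15.

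Between the DMSO arrays the members were as one-sided in direction, with smaller gaps. DMSO replicate 2 was the higher of its pair in 1 of the 10 genes, Etv5, against 46.3% of all genes tested, and the median gap was -0.09, against -0.01 over all genes. After cyclic loess normalization, which evens out differences that follow signal, olaparib replicate 2 was still the higher in 8 of 10 members, with a median gap of 0.16, against 52.7% and 0.0082 over all genes. With olaparib replicate 1 left out, 6 of the 10 genes (Spred1, Spred2, Dusp6, Spry4, Etv4 and Etv5) were called higher and 0 lower, where 9.13% and 6.00% of all genes were called. With olaparib replicate 2 left out, Spred1 was called higher and Dusp4 lower, where 4.06% and 7.39% of all genes were called. With DMSO replicate 1 left out 0 of the 10 genes were called, where 0.695% and 1.15% of all genes were called higher and lower. With DMSO replicate 2 left out it was again 0, where 0.917% and 1.18% were called. The median log2 difference over the set was 0.06 with olaparib replicate 1 alone and 0.31 with olaparib replicate 2 alone. What sets the olaparib arrays apart was not tested.

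**Figure D3:**
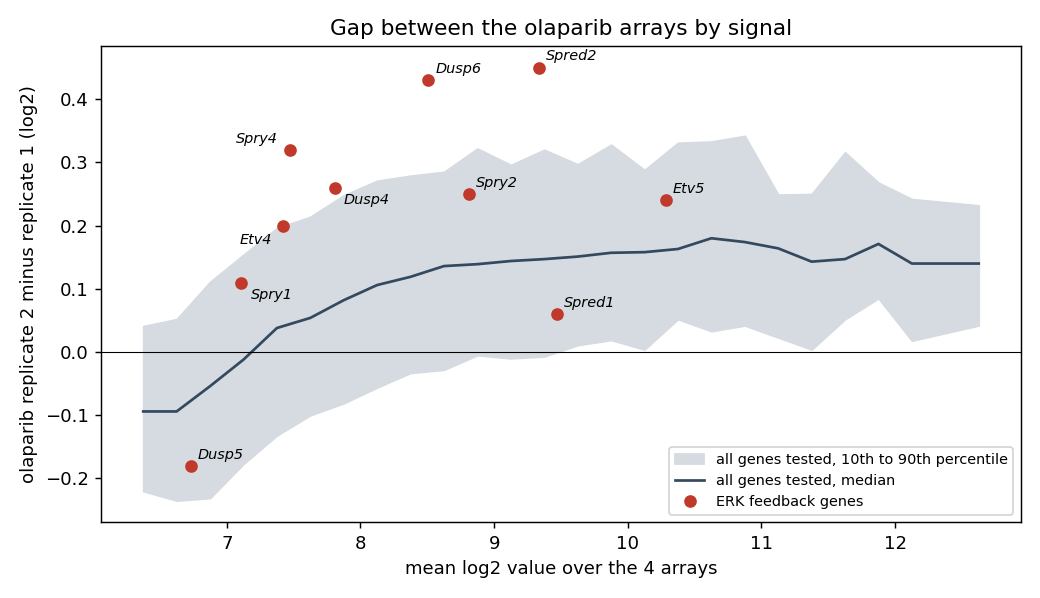
Gap between the olaparib arrays (replicate 2 minus replicate 1, log2) against the mean log2 value over the 4 arrays, with the ERK feedback genes as points and all genes tested as a median line and a band from the 10th to the 90th percentile in bins of 0.25. The line climbs with signal up to a mean of about 9 and then levels off, and Spred2, Dusp6, Spry4, Dusp4 and Etv4 lie above the band or at its upper edge while Spred1 lies below the line.

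The genes around these regulators were taken from lists ordered by role in the pathway. Of 17 growth factor ligand genes tested, 1 rose, 1 fell and 15 did not pass. That was 5.88% higher and 5.88% lower, against 2.84% and 3.37% of all genes tested. Pdgfa, the ligand of the platelet-derived growth factor receptor of oligodendrocyte progenitors, had log2 values of 7.90 and 8.09 on the olaparib arrays, against 7.28 and 7.25 on the DMSO arrays. It rose by 0.73 (SE 0.09, limma adjusted p = 3.39e-05), though its DMSO values lay below 7.77, the highest mean of genes from unrelated tissues. Igf1, which encodes insulin-like growth factor 1, had 6.49 and 6.51 on the olaparib arrays, against 6.99 and 6.96 on the DMSO arrays. It fell by 0.47 (SE 0.08, limma adjusted p = 0.000636), though its olaparib values were close to those of genes from unrelated tissues. The groups did not overlap in either gene, and both kept their calls with any 1 array left out. Both lost them in the fit of every probe set (adjusted p = 0.0561 for Pdgfa and 0.0709 for Igf1).

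Of 14 receptor tyrosine kinase genes tested, 0 rose, 3 fell and 11 did not pass. That was 0% higher and 21.4% lower, against 2.84% and 3.37% of all genes tested. The median log2 difference was -0.10, against 0.0013 over all genes. Erbb4, a neuregulin receptor of migrating neuroblasts, had 6.99 and 6.92 on the olaparib arrays, against 7.32 and 7.28 on the DMSO arrays. It fell by 0.35 (limma adjusted p = 0.0087). Fgfr2 had 7.83 and 7.73 on the olaparib arrays, against 8.15 and 8.14 on the DMSO arrays. Fgfr3, a receptor gene with high expression in astrocytes and radial glia, had 7.37 and 7.48 on the olaparib arrays, against 7.84 and 7.64 on the DMSO arrays. Both of these fibroblast growth factor receptors were thus lower on each olaparib array than on each DMSO array, and they fell by 0.37 and 0.32 (limma adjusted p = 0.0172 and 0.0358). Erbb4 and Fgfr3 had both group means below 7.77, the highest mean of genes from unrelated tissues. The sizes of their differences are less certain.

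Egfr, the receptor of epidermal growth factor, had 9.89 and 10.11 on the olaparib arrays, against 10.37 and 10.39 on the DMSO arrays. The groups did not overlap, but the log2 difference of -0.38 did not pass (95% interval -0.63 to -0.13, limma adjusted p = 0.0683). It passed without olaparib replicate 2 (adjusted p = 0.000647). Fgfr1 differed by -0.05 and Erbb2 by -0.01 with overlapping groups. Of the 3 receptor genes that fell, Erbb4 and Fgfr2 lost the call without either DMSO array, and Fgfr3 lost it without DMSO replicate 1 (adjusted p = 0.628) and without olaparib replicate 1 (adjusted p = 0.0542). The count of receptor genes that fell was 0 without DMSO replicate 1 and 1 without DMSO replicate 2. It was 3 without olaparib replicate 1, where 2 others passed as higher, and 4 without olaparib replicate 2.

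Of 13 adaptor, exchange factor and RAS genes and of 10 kinase and scaffold genes tested, 0 passed in limma. Against 19.1% of all genes, 1 gene of the first list and 0 of the second had an unadjusted limma p under 0.05. Their median log2 differences were close to 0, and the differences ran from -0.18 to 0.21 in the first list and from -0.13 to 0.13 in the second.

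Other phosphatases and inhibitors were compared with the members. Of 7 other MAP kinase phosphatase genes 1 rose, 0 fell and 6 did not pass, or 14.3% higher, against 2.84% of all genes tested. The median log2 difference was 0.12. Dusp10, a phosphatase of the stress kinases p38 and JNK, had 7.59 and 7.81 on the olaparib arrays, against 7.37 and 7.41 on the DMSO arrays. It rose by 0.31 (SE 0.09, limma adjusted p = 0.0409), a call lost with 1 array left out in every case but that of olaparib replicate 1. Dusp1, an immediate early phosphatase, had 8.05 and 8.22 on the olaparib arrays, against 7.86 and 7.82 on the DMSO arrays, a log2 difference of 0.30 (adjusted p = 0.0636). The groups did not overlap in either gene. Both group means of Dusp10 lay below 7.77, the highest mean of genes from unrelated tissues, so the size of its difference is less certain.

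Of 15 other inhibitors of receptor, RAS and ERK signalling, 0 passed in limma (unadjusted p under 0.05 in 3, against 19.1% of all genes). The median log2 difference of the 15 was 0.01. The relatives of the members in that list, Spry3 and Spred3, both differed by -0.08 (adjusted p = 0.697 and 0.678). Spred3 had 7.20 and 7.03 on the olaparib arrays, against 7.21 and 7.19 on the DMSO arrays, so the groups overlapped. Nf1, the partner of the Spred proteins, differed by 0.0073 (95% interval -0.20 to 0.22).

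Other genes that ERK is known to induce were the list with the most calls. Of 24 tested, 7 rose, 1 fell and 16 did not pass. That was 29.2% higher and 4.17% lower, against 2.84% and 3.37% of all genes tested. The median log2 difference was 0.17, against 0.0013 over all genes. Ier3, an early response gene of growth factors, had 7.94 and 8.17 on the olaparib arrays, against 7.40 and 7.31 on the DMSO arrays. Fosl1, which encodes the AP-1 subunit FRA1, had 7.50 and 7.53 on the olaparib arrays, against 7.11 and 6.92 on the DMSO arrays. Hmga2, a chromatin protein of growing progenitors, had 7.29 and 7.48 on the olaparib arrays, against 7.01 and 6.89 on the DMSO arrays. In all 3 genes the groups stood apart, and they rose by 0.70, 0.51 and 0.44 (limma adjusted p = 8.15e-05, 0.00066 and 0.00306). Fosl1 and Hmga2 on all arrays and Ier3 on the DMSO arrays lay below 7.77, the highest mean of genes from unrelated tissues. The sizes of their differences are less certain.

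Ccnd1, which encodes cyclin D1, had 10.78 and 11.02 on the olaparib arrays, against 10.35 and 10.21 on the DMSO arrays. It rose by 0.62 (SE 0.12, limma adjusted p = 0.00433). The other genes past the threshold in this list, named after their values were seen, were Bhlhe40 (0.39), Fos (0.34) and Lif (0.32), which rose, and the membrane protein gene Emp1, which fell by 0.31. Fos, Lif and Emp1 on all arrays and Bhlhe40 on the DMSO arrays lay below 7.77, the highest mean of genes from unrelated tissues. The sizes of their differences are less certain. With 1 array left out, the number that rose was 11 without olaparib replicate 1, 7 without olaparib replicate 2, 3 without DMSO replicate 1 and 2 without DMSO replicate 2. With all probe sets in the fit it was 0, with adjusted p = 0.0654 for Ier3 and 0.0869 for Fosl1. Several of these genes were already known from earlier results on these arrays, so the count is not independent evidence of its direction.

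**Figure D4:**
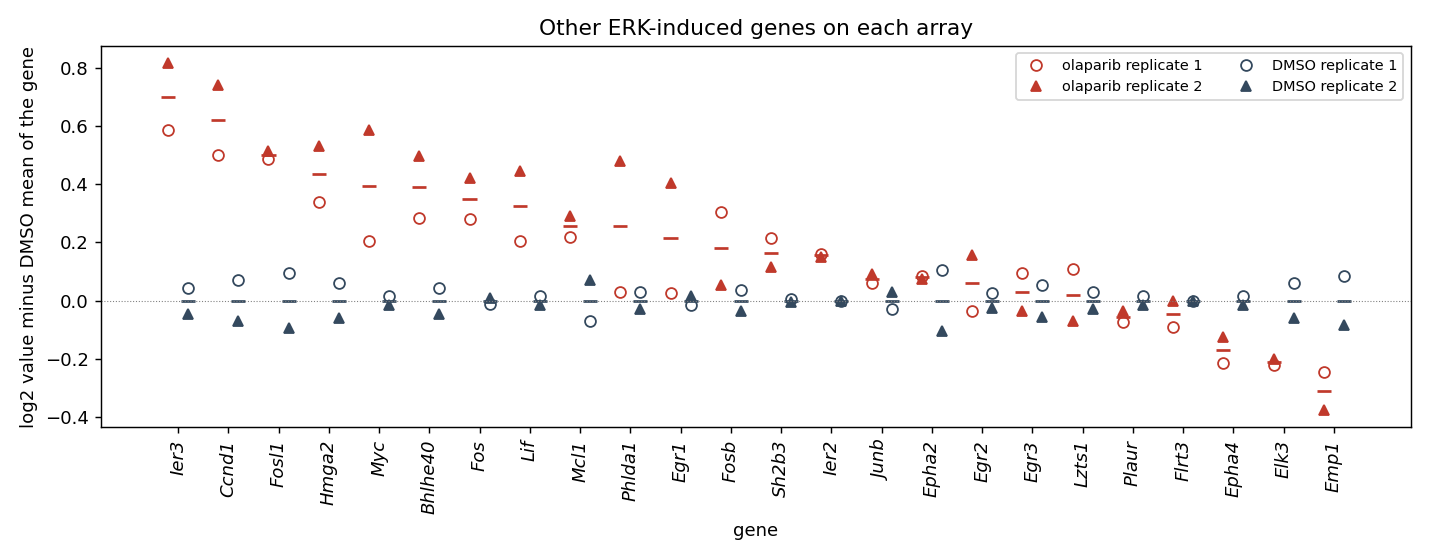
Log2 value of each of the 24 other ERK-induced genes on each array, minus the gene's mean over the DMSO arrays, with olaparib arrays left of DMSO arrays, bars at group means and genes in order of their change. Both olaparib arrays lie well above both DMSO arrays from Ier3 to Lif, with the widest olaparib pairs in Myc, Phlda1 and Egr1. Both lie below them in Emp1, Elk3 and Epha4 and, by a hair, in Plaur. In Flrt3 olaparib replicate 2 is level with the DMSO arrays at the precision drawn.

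Of 12 other ETS factor and Capicua genes, 0 passed in limma (unadjusted p under 0.05 in 2, against 19.1% of all genes). The median log2 difference of the 12 was 0.05. Etv1, the third PEA3 factor, had 9.62 and 9.68 on the olaparib arrays, against 9.35 and 9.41 on the DMSO arrays. The pairs did not overlap, and the log2 difference of 0.27 did not pass (95% interval 0.04 to 0.50, adjusted p = 0.182). Cic, which encodes Capicua, differed by 0.03 (adjusted p = 0.915).

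**Figure D5:**
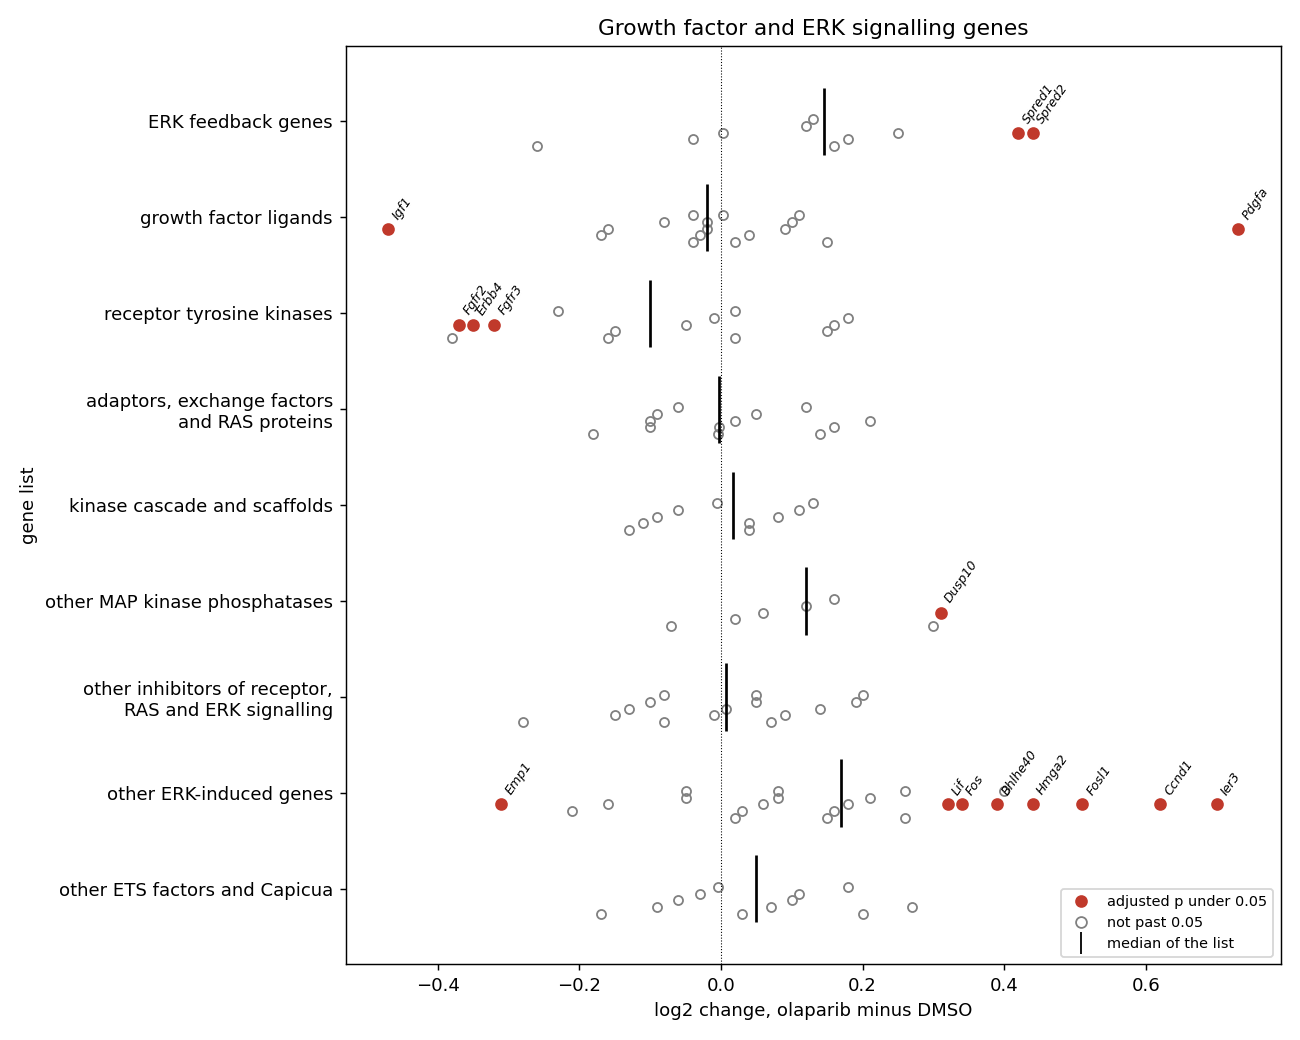
Log2 change (olaparib minus DMSO) of each gene tested, by role in growth factor and ERK signalling, with filled points for an adjusted p under 0.05 and a line at each list's median. The filled points lie to the right among the ERK feedback and other ERK-induced genes, with Emp1 as the exception, and to the left among the receptors.

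Markers of cell types moved between the groups beside these results. Neural stem cell and astrocyte markers had a mean log2 level of 10.15 and 10.34 on the olaparib arrays, against 10.47 and 10.50 on the DMSO arrays. Of these 9 genes, Gfap and Aqp4 fell by 1.03 and 0.71 (limma adjusted p = 6.12e-05 and 0.000703) and 7 did not pass. Both calls were lost in the fit of every probe set (adjusted p = 0.0658 and 0.07). The list did not move as one: 5 genes were separated downward, against 23.9% of all genes tested. Nes and Vim, with log2 differences of 0.23 and 0.16 that did not pass, were separated upward, against 23.2% of all genes. Immature neuron markers had a mean log2 level of 7.89 and 7.99 on the olaparib arrays, against 8.28 and 8.31 on the DMSO arrays, and of the 6 tested Dcx and Map2 fell by 1.05 and 0.55 (limma adjusted p = 4.36e-06 and 0.0115). All 6 were separated downward, against 23.9% of all genes tested. Dcx kept its call in all 14 alternatives, while Map2 lost it without DMSO replicate 1, without DMSO replicate 2 and in the fit of every probe set (adjusted p = 0.12, 0.317 and 0.162). The mean levels of both lists were lower on each olaparib array, as were Fgfr2, Fgfr3 and Erbb4, and their part in those differences was not tested. Oligodendrocyte lineage markers had a mean level of 8.04 and 8.09 on the olaparib arrays, against 7.99 and 7.99 on the DMSO arrays, and of 7 tested Cspg4 rose by 0.33 (limma adjusted p = 0.0122). The values of Cspg4 lay below 7.77, the highest mean of genes from unrelated tissues. Cspg4 lost its call without DMSO replicate 1, without DMSO replicate 2 and in the fit of every probe set (adjusted p = 0.0791, 0.186 and 0.154). In that list 4 log2 differences were above 0 and 3 below. Cspg4 and Mbp were separated upward, against 23.2% of all genes tested, and Olig2 downward, against 23.9%. Mbp, also below 7.77 on all arrays, differed by 0.26 and Olig2 by -0.16, and neither passed. Microglial markers had a mean level of 6.54 and 6.43 on the olaparib arrays, against 6.44 and 6.49 on the DMSO arrays. Vascular and fibroblast markers had 6.54 and 6.39 on the olaparib arrays, against 6.52 and 6.47 on the DMSO arrays, and ependymal markers 6.81 and 6.77 on the olaparib arrays, against 6.87 and 6.88 on the DMSO arrays. These levels are close to those of genes from unrelated tissues. Of the 4 markers tested in each of these 3 lists 0 passed in limma. An unadjusted limma p under 0.05 was found in 1, 0 and 1, against 19.1% of all genes.

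The mean profile of the 10 genes over the 4 arrays, each gene centred on its own mean, was -0.04 and 0.18 on the olaparib arrays, against -0.02 and -0.12 on the DMSO arrays. The genes nearest to it by Euclidean distance were Psmd3, Maml2 and Cbarp, at distances of 0.016, 0.021 and 0.022 log2 units. Each had a log2 difference of 0.15 and was highest on olaparib replicate 2. With 4 arrays likeness is weak: 1634 genes lay within 0.15 log2 units of the profile, whose own length was 0.217.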

How the data were processed

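From each sample 40 ng of RNA was amplified and run on 1 Affymetrix array, per the labels' protocols. The starting point was the table of log2 values that the authors deposited. Their background correction, normalization and summary of probes are not given in the sources used here, so background correction could not be repeated. The platform annotation gave a single gene for 21640 of 34760 probe sets, several genes for 1321 and no entry for 11799. Of 19937 genes, 19918 matched the RefSeq table of GRCm38.p6 and took its symbols.

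Genes with a mean above the 30th percentile were tested, 13956 in all, on the difference olaparib minus DMSO, two-sided, by limma 3.58.1 (lmFit, then eBayes with trend=TRUE; R 4.3.3). Benjamini-Hochberg adjustment ran over all of them, and 0.05 was the threshold. All adjusted p-values are limma's. The fit rests on 2 residual degrees of freedom and a prior worth 18.1 with 1 row per gene, against 5.25 with all 21704 probe sets above the same signal. Replicate numbers name arrays only and pair nothing. With 1 array left out, a lone array is taken to vary as the other group does. Without either DMSO array, and under median centring, limma's prior was infinite, so that each gene took the variance of the trend over all genes and its own arrays carried no weight in it. Plots were made in Python 3.11.15 with matplotlib 3.10.9.

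The members and lists were chosen with earlier results of these data known. The text names all members, up to 4 genes per list by smallest p past the threshold, and genes fixed by name. Alternatives were the filter, normalization (quantile, median centring, cyclic loess), the prior, array weights, the probe sets, the threshold and each array left out.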

Additional observations from a re-analysis of the deposited data

How the results depend on the processing

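Both Spred genes passed under quantile and cyclic loess normalization, array weights and averaged probe sets. They also passed with robust eBayes, with eBayes with no trend and with the filter at the 50th percentile. Passing at a threshold of 0.1 follows from passing at 0.05. The number of feedback genes called higher, 2 as reported, was 1 without a filter and 0 under median centring and with all probe sets in the fit. It ran from 0 to 6 with 1 array left out, and the number called lower from 0 to 1. The median change of the set, 0.14, ran from 0.06 to 0.31 with 1 array left out and from 0.11 to 0.16 under the other alternatives.

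With 1 array left out Dusp5 ran from -0.09 to 0.09, turning without olaparib replicate 1 and, at -0.05, without DMSO replicate 2. Dusp6 ran from -0.09 to 0.34 and Spry4 from -0.0021 to 0.32, both turning without olaparib replicate 2. Spry2 ran from -0.16 to 0.08, turning without olaparib replicate 1 and, at 0.07, without DMSO replicate 1. None of these turned values passed. Of 151 comparisons of a member with an alternative, 130 kept direction and side of the threshold, 10 lost a call, 5 gained one and 6 turned. With another filter, another prior, the looser threshold or all probe sets in the fit, the log2 differences stay the same by construction. Direction could not turn there, and the looser threshold could not lose a call.

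Over all genes, 397 were higher and 471 lower. The counts were 257 higher without a filter, 606 and 715 at an adjusted p of 0.1, 779 lower under quantile and 732 lower under cyclic loess normalization, and 1 and 13 probe sets with all probe sets in the fit. With 1 array left out they ran from 97 to 1274 higher and from 161 to 1032 lower. With all probe sets in the fit 0 genes of the pathway lists passed in either direction. With 1 array left out, a choice made after seeing the data, the ranges were 0 to 2 receptor genes higher and 0 to 4 lower, 0 to 2 other MAP kinase phosphatases higher, and 2 to 11 other ERK-induced genes higher and 0 to 1 lower. Ligand counts stayed at 1 higher and 1 lower. The causes were not tested, except that a looser threshold calls more genes. Without either DMSO array the variance of every gene was the trend over all genes. The median of that trend was 0.0118 without DMSO replicate 1 and 0.0117 without DMSO replicate 2, against 0.00701 with all arrays.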
